A study of Mus musculus with 18 samples.

Results

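The unfolded protein response and the chaperones of the endoplasmic reticulum (ER) were described here through 36 genes, a list drawn up from known roles in ER protein folding and stress signalling. The list was chosen with earlier results of these data known, so its comparisons with all genes are descriptions and not independent tests. All 36 were among the 35865 genes listed under a single name in the RNA table, and 35 of them were among the 15240 genes that passed the filter of at least 1 TPM (transcript abundance scaled to the same total in every library) in 2 or more libraries. Chac1, which encodes a glutathione-degrading enzyme, was listed at 0 in every library and was not tested.

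The ER is where secreted and membrane proteins are folded. BiP, the product of Hspa5, holds unfolded chains and also keeps the 3 stress sensors inactive. When unfolded protein builds up, IRE1 (gene Ern1) splices Xbp1 mRNA, PERK (gene Eif2ak3) slows translation and favours ATF4, and ATF6 is released to the Golgi and cleaved into a transcription factor. Their targets are chaperones, disulfide enzymes and the machinery that returns misfolded protein to the cytosol for degradation. T cells, regulatory T cells (Tregs) included, draw on this machinery when they are activated and secrete cytokines.

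The study deleted Chd8, a chromatin remodeler, in Tregs with a Cre recombinase fused to yellow fluorescent protein (YFP) and expressed from the X-linked Foxp3 gene. YFP+ cells were sorted from splenic CD4+ T cells, and RNA was sequenced from 2 WT and 2 Chd8-/- libraries. The labels give the Chd8-/- libraries as CHD8Flox/FloxFoxp3YFP-Cre and the WT libraries as CHD8flox/floxFoxp3YFP-Cre/+, whereas the study describes mice with unfloxed Chd8 as the WT. By their label, YFP+ cells of the WT libraries would also carry Cre and floxed Chd8. Which description holds was not tested. The mice were 5 to 7 weeks old. In the study, Chd8-/- mice developed fatal inflammation, and their Tregs carried more activation markers and made more effector cytokines. The part of that state in the RNA values was not tested. A poly IC injection is on the label of every sample, so it was shared by both genotypes. The study describes a male and a female mouse for each genotype, while the labels give the libraries only numbers, and p-values measure the spread between these libraries.

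Chd8 itself was at 14.9 and 11.4 TPM in the Chd8-/- libraries and at 24.7 and 27.6 TPM in the WT libraries, a log2 fold change of -0.95 (SE 0.29, limma adjusted p = 0.455). The libraries of the genotypes did not overlap, and the values cover the whole gene rather than the deleted part. Foxp3 and the other Treg markers were detected in all 4 libraries, and the 10 of them summed to between 3631.5 and 4338.7 TPM. Xist was between 500.2 and 843.3 TPM and the 4 Y-linked genes checked were listed at 0 in every library, which is not the pattern of a male mouse.

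One library stood apart. Over the genes tested, the Chd8-/- libraries had a Pearson correlation of 0.860 with each other. Library 2 correlated with the WT libraries at 0.840 and 0.842, and library 1 at 0.897 and 0.902. Chd8-/- library 1 thus correlated more with WT than with Chd8-/- library 2. Chd8-/- library 2 had 1521.8 TPM over 11 myeloid markers, against 33.3 TPM in Chd8-/- library 1 and 156.9 and 124.6 TPM in the WT libraries. Most of it was Lyz2, the macrophage lysozyme, at 1360.3 TPM. The 11 B and plasma cell markers summed to 343.1 TPM there. They summed to 45.5 TPM in Chd8-/- library 1 and to 87.2 and 82.8 TPM in WT. Among them Jchain was at 165.6 TPM in Chd8-/- library 2, 9.5 TPM in library 1 and 41.8 and 38.8 TPM in WT. Mzb1 was at 7.2 TPM in Chd8-/- library 2, 0.3 TPM in library 1 and 0.7 and 1.4 TPM in WT. Sdc1 was highest in WT library 2, at 3.0 TPM, and the plasma cell receptor Tnfrsf17 was at 0.2 TPM or less in every library. The number of markers listed at 0 was 5 of 11 (myeloid) and 4 of 11 (B and plasma) in Chd8-/- library 1, and 1 of 11 for each list in Chd8-/- library 2. The sums were therefore lower in Chd8-/- library 1 than in either WT library and higher in Chd8-/- library 2. The 10 immediate early genes, which respond to handling of cells, summed to between 667.1 and 719.3 TPM in all 4. Single genes differed. Of 9 tested, 3 (33.3%) were above both WT libraries in both Chd8-/- libraries and 3 (33.3%) were below. Over all genes tested these shares were 14.8% above and 27.8% below. Jun was at 20.1 and 29.3 TPM against 4.7 and 10.4 TPM in WT, and Ier3 at 2.5 and 1.0 TPM against 2.6 and 18.8 TPM. The part of these markers in the results was not tested, and the 36 genes are given in each library. In bulk RNA, fewer cells of a type and less RNA per cell cannot be told apart.

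**Figure D1:**
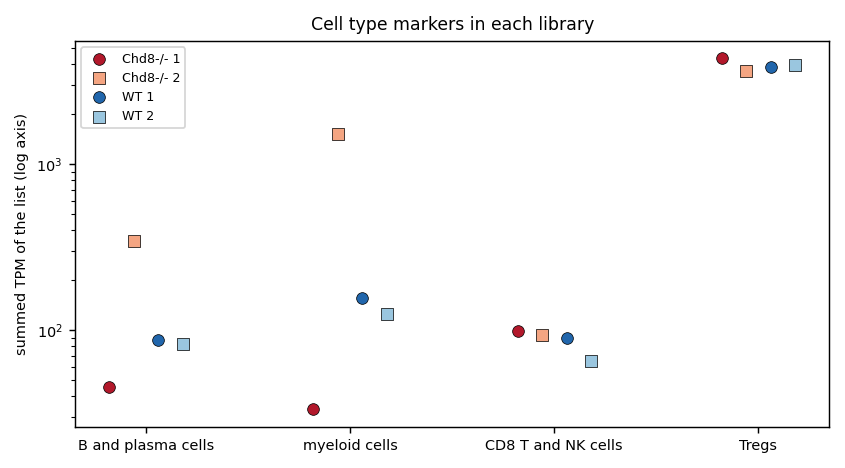
Summed TPM of 4 lists of cell type markers (log axis) in each library. The Chd8-/- library 2 square is at 1521.8 TPM for myeloid markers and 343.1 TPM for B and plasma cell markers, above the other 3 libraries, whereas Treg markers lie between 3631.5 and 4338.7 TPM in all.

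The best known control element of this gene group is the ER stress response element (ERSE), bound by NF-Y together with cleaved ATF6 or spliced XBP1. RefSeq promoter windows (GRCm38.p6, 250 bases before to 50 after a start site) were found for 31 of the 36 genes. The exact form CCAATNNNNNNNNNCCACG was searched on both strands and was in the windows of 10 of these 31 genes (32.3%), against 37 of 27025 genes in all (0.137%). The 37 include the 10. Since the element is known from this gene group, the contrast is a description and not an independent result. The sites below belong to a part of these 10 genes, with the fixed bases in capitals and written in the direction of the element. The RNA of all 10 is described further on.
Hspa5: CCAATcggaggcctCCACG
Hsp90b1 (nearer site): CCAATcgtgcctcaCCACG
Hsp90b1 (farther site): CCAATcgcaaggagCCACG
Calr: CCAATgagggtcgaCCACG
Canx: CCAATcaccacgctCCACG
Creld2: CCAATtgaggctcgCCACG
Pdia6: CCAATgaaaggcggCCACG
Syvn1: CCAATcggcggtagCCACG

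The Hspa5 site lies at chr2:34772025-34772043 on the plus strand, the strand of the gene, and begins 65 bases before its start. Hsp90b1 holds its sites at chr10:86705533-86705551 and chr10:86705638-86705656, on the plus and the minus strand. The Calr site is at chr8:84847075-84847093 (plus), that of Canx at chr11:50325800-50325818 (minus), and that of Creld2 at chr15:88819520-88819538 (minus). Pdia6 and Syvn1 have theirs at chr12:17266491-17266509 and chr19:6046532-6046550, both on the plus strand. Derl3, Dnajc3 and Ero1lb hold the element too, though their sites are not shown. The log2 fold changes of Chd8-/- over WT in these genes were 0.41, -0.20 and -0.32 in that order. Of the genes most discussed next, Hspa5 spans chr2:34772090-34776529, Hsp90b1 chr10:86690841-86705444, Calr chr8:84842088-84846931, Canx chr11:50293957-50325673, Manf chr9:106888753-106891938 and Ero1l (Ero1a in RefSeq) chr14:45283087-45318572.

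The shorter ERSE-II form ATTGGNCCACG was in the windows of Herpud1 and Dnajb11, 2 of 31 genes (6.45%), against 0.0444% of all genes. An ATF4-bound element, searched as TTGCATCA or TTTCATCA, was in 3 (9.68%), Asns, Chac1 and Herpud1, against 2.16% of all genes. The XBP1 element TGACGTGG was in none of the 31 windows and in 0.714% of all genes. A match is a description of letters and not a measured binding site. For elements known from this pathway the shares are no independent test. Herpud1, a membrane protein of the degradation machinery, carried 1 of each of the first pair in a single window:
Herpud1 (ERSE-II): ATTGGgCCACG
Herpud1 (ATF4 element): TTGCATCA

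Across the 35 genes tested, 28 had a positive and 7 a negative log2 fold change of Chd8-/- over WT, with a median of 0.36 beside a median of -0.15 over all genes tested. In 14 genes (40.0%) the lower of the Chd8-/- libraries exceeded the higher of the WT libraries, against 14.8% of all genes tested. In 2 genes (5.71%) the reverse held, against 27.8% of all genes. Quantile normalization, which sets the median of all genes to 0.00, gave 15 genes above and 3 below, 12 and 1 of them shared with the values as deposited, beside 21.0% above and 21.3% below over all genes. Under it P4hb, Sec61b and Ero1lb overlapped, Pdia4, Derl2 and Trib3 were above, and Atf4 and Dnajc3 were below.

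Of the members, none passed the adjusted p threshold of 0.05 in limma (0% of all genes did), and their smallest adjusted p was 0.403. At an unadjusted p under 0.05, 6 of 35 were higher (17.1%), Hspa5, Hsp90b1, Calr, Canx, Manf and Ero1l, against 3.90% of all genes. None of the 35 was lower at that level, against 6.30% of all genes. Among the members, a log2 fold change of 1 or more occurred in 1, Ppp1r15a (5.12% of all genes), and -1 or less in 0 (11.6% of all genes). An exact permutation of 2 against 2 libraries cannot give a two-sided p below 0.333.

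**Figure D2:**
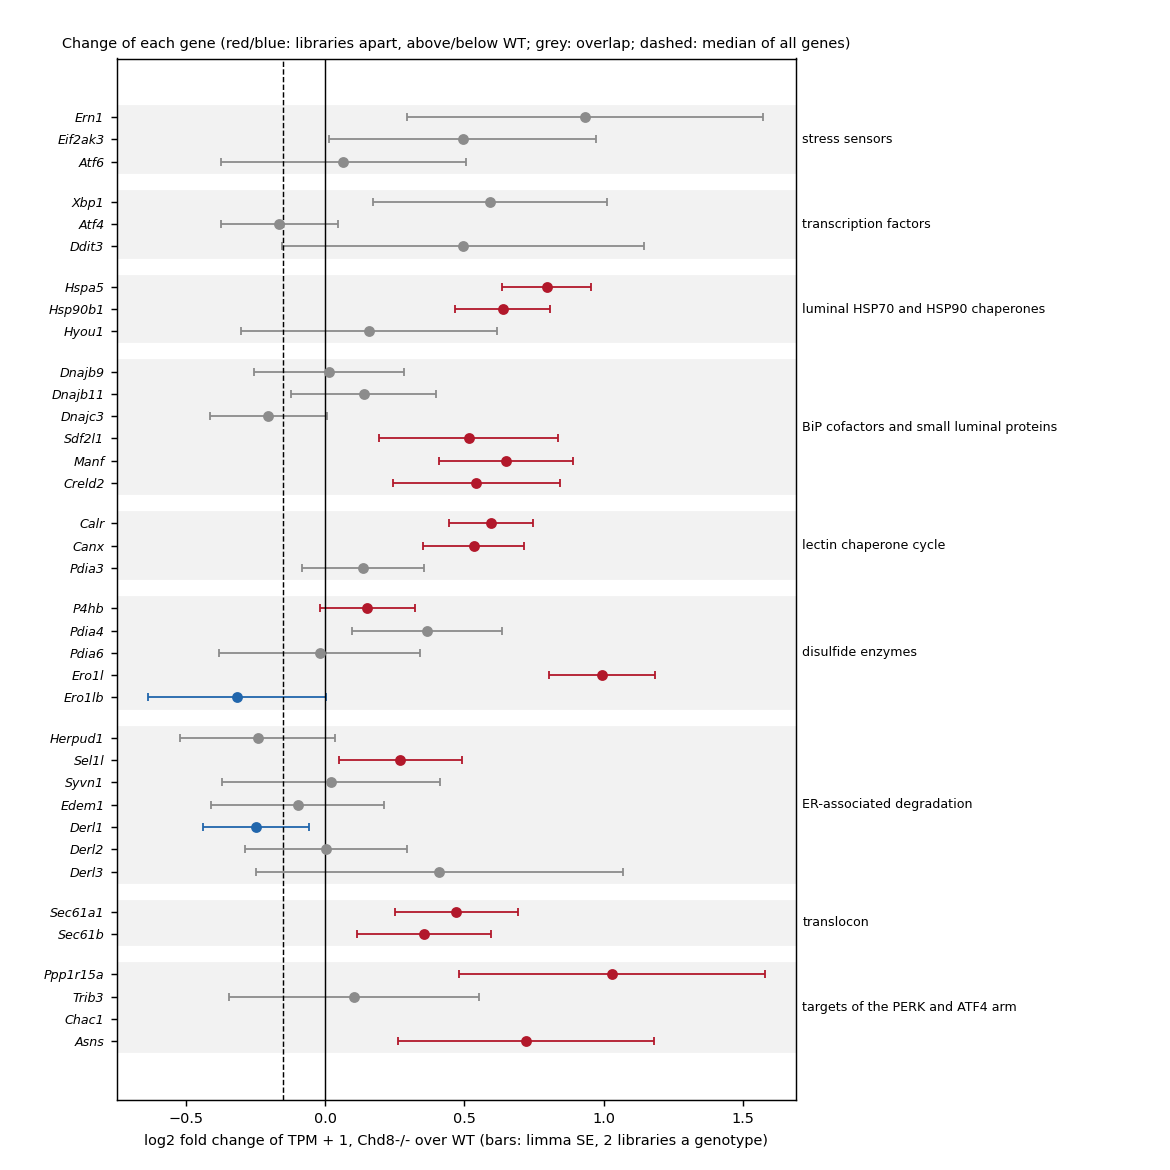
Log2 fold change of TPM + 1 for the 35 genes tested, Chd8-/- over WT, by role; bars are the limma SE with 2 libraries a genotype. Red points, 14 in all, mark genes whose Chd8-/- libraries are both higher than WT, the 2 blue points those below, and the dashed line is the median of all genes at -0.15.

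The summed RNA of the 36 genes was 5018.5 and 4823.3 TPM in the Chd8-/- libraries and 3553.3 and 3868.2 TPM in WT, a ratio of means of 1.33. The genotypes did not overlap. The 5 most abundant members in WT, Hsp90b1, Pdia3, Calr, Sec61b and Hspa5, made up 63.2% and 63.0% of that sum in Chd8-/- and 59.5% and 57.3% in WT. The remaining 31 genes had a ratio of means of 1.17.

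**Figure D3:**
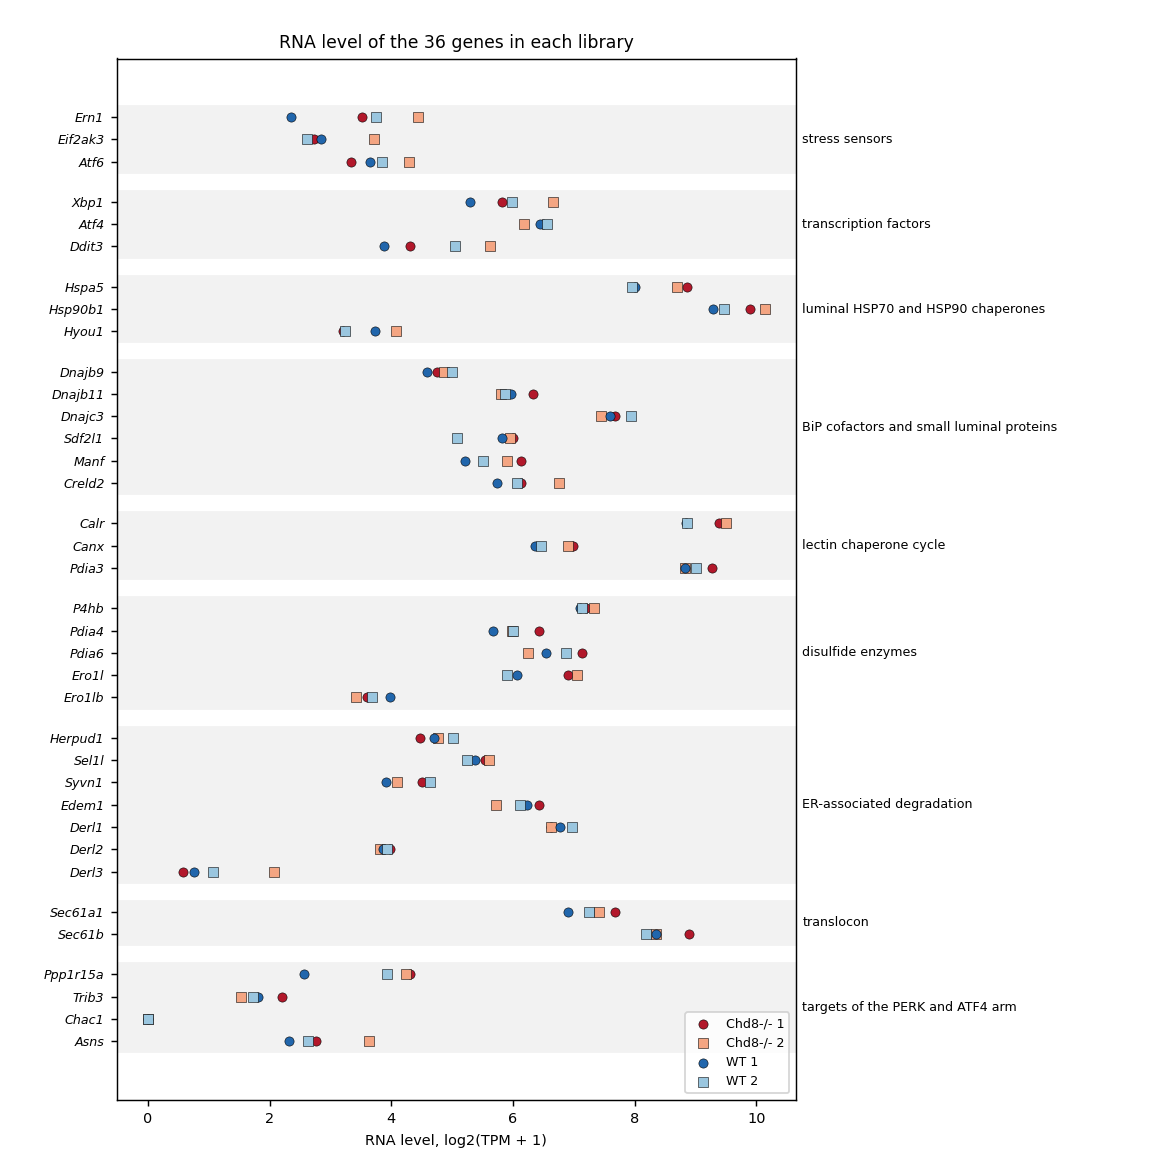
RNA level, log2(TPM + 1), of each of the 36 genes in the 4 libraries, by role. Hspa5, Hsp90b1, Calr, Canx and Ero1l show both Chd8-/- points to the right of both WT points, whereas Ern1, Eif2ak3, Atf6, Xbp1 and Ddit3 show the square of Chd8-/- library 2 alone at the right.

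Of the 3 large chaperones of the ER lumen, 2 were higher in both Chd8-/- libraries. Hspa5, which encodes BiP, the HSP70 of the lumen, was at 462.0 and 413.1 TPM in the Chd8-/- libraries and at 255.6 and 246.9 TPM in WT. Its libraries lay well apart, at 1.74-fold on the TPM + 1 scale (log2 fold change 0.80, SE 0.16, unadjusted p = 0.00620, adjusted p = 0.403). Hsp90b1, the HSP90 of the lumen known as GRP94 and a chaperone of integrins and Toll-like receptors, was at 949.2 and 1124.0 TPM against 625.5 and 703.3 TPM in WT. Every Chd8-/- value was again above every WT value (log2 fold change 0.64, SE 0.17, adjusted p = 0.434). Hyou1, an HSP70-like exchange factor for BiP, was at 8.2 and 15.9 TPM against 12.3 and 8.4 TPM. It lay on both sides of WT, with a log2 fold change of -0.28 for Chd8-/- library 1 alone and 0.60 for library 2 alone.

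Calnexin and calreticulin, the lectins that hold newly made glycoproteins until they fold, had the same arrangement. Calr was at 666.1 and 725.1 TPM in Chd8-/- and 456.1 and 463.0 TPM in WT (log2 fold change 0.60, SE 0.15, adjusted p = 0.430). Canx was at 126.3 and 118.8 TPM against 81.6 and 87.2 TPM (0.53, SE 0.18, adjusted p = 0.471). Neither gene overlapped between the genotypes, and the gap between replicates was small beside the difference. Pdia3, the disulfide isomerase that works with both lectins, was at 619.2 and 454.4 TPM against 454.3 and 512.4 TPM. Its 4 values overlapped, with Chd8-/- library 1 alone above WT.

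The small proteins around BiP divided by kind. Manf, a secreted nucleotide exchange regulator of BiP, was at 68.7 and 58.7 TPM against 36 and 44.7 TPM in WT (log2 fold change 0.65, SE 0.24, unadjusted p = 0.0485). Creld2, an ER isomerase-like protein, was at 69.2 and 106.9 TPM against 52.5 and 65.7 TPM, and Sdf2l1, a partner of ER DnaJ proteins, at 62.7 and 60.7 TPM against 55.6 and 33.0 TPM. All 3 lay above WT in both libraries. The Sdf2l1 difference was 0.52 on the log2 scale and 0.15 without WT library 2. The Creld2 difference came to 0.23 with Chd8-/- library 1 alone and 0.85 with library 2 alone on the log2 scale.

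The DnaJ cofactors did not separate. Dnajb9 (ERdj4), a repressor of IRE1, was at 25.8 and 28.2 TPM against 23.1 and 30.9 TPM, and Dnajb11 (ERdj3) at 78.9 and 54.5 TPM against 61.5 and 57.5 TPM. Dnajc3 (p58IPK), an inhibitor of PERK, was at 202.9 and 173.9 TPM against 191.9 and 244.4 TPM. Its log2 fold change was -0.20 (SE 0.21), and the values of all 3 genes overlapped.

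Among the disulfide enzymes, Ero1l stood highest. It encodes ERO1 alpha, the oxidase that recharges protein disulfide isomerases, and was at 119.3 and 131.4 TPM in Chd8-/- against 65.8 and 59.0 TPM in WT. Its log2 fold change was 0.995 (1.99-fold, SE 0.19, unadjusted p = 0.00542, adjusted p = 0.403), nearly the same in each Chd8-/- library (0.93 and 1.06). Its paralog Ero1lb (ERO1 beta) was lower, at 11.1 and 9.7 TPM against 14.7 and 11.8 TPM, and its libraries did not overlap either (log2 fold change -0.32, SE 0.32). P4hb, the main disulfide isomerase, was slightly above WT in both libraries, at 146.3 and 159.9 TPM against 135.9 and 139.5 TPM (0.15, SE 0.17).

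Pdia4 and Pdia6, further isomerases, overlapped between genotypes. Pdia4 was at 84.7 and 61.9 TPM against 50 and 62.7 TPM, and Pdia6 at 138.8 and 75.0 TPM against 92.0 and 116.5 TPM. In both genes Chd8-/- library 1 was the highest of the 4, and in Pdia6 library 2 was the lowest.

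The translocon, the channel through which nascent chains enter the ER, was represented by a pair of subunits. Sec61a1, its pore, was at 203.3 and 169.1 TPM against 118.4 and 150.4 TPM (log2 fold change 0.47, SE 0.22), and Sec61b at 473.3 and 323.9 TPM against 323.5 and 289.3 TPM (0.36, SE 0.24). Both genes lay above WT in both libraries. For Sec61b the margin between Chd8-/- library 2 and WT library 1 was only from 323.9 to 323.5 TPM.

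ER-associated degradation had the smallest change of the role groups, with a median log2 fold change of 0.00 over 7 genes and a ratio of summed TPM of 0.94. Sel1l, the scaffold of the HRD1 ligase, was at 45.6 and 47.6 TPM against 40.3 and 36.7 TPM, above WT in both libraries (0.27, SE 0.22). Derl1, a Derlin of the retrotranslocation channel, was at 97.4 and 97.8 TPM against 108.1 and 124.9 TPM, below WT in both (-0.25, SE 0.19). Those were the only members of this group, above or below, whose libraries did not overlap.

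Syvn1, the HRD1 ligase itself, was at 21.7 and 16.0 TPM against 14.0 and 24.0 TPM. Herpud1 was at 21.1 and 26.1 TPM against 24.9 and 31.4 TPM, Edem1, a mannosidase-like lectin, at 84.6 and 51.7 TPM against 73.7 and 68.3 TPM, and Derl2 at 14.7 and 13.1 TPM against 13.5 and 14.2 TPM. Derl3, a Derlin typical of secretory cells, was low at 0.5 and 3.2 TPM against 0.7 and 1.1 TPM. All 5 overlapped between the genotypes.

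The sensors and their transcription factors overlapped in all 6 genes. Ern1 was at 10.5 and 20.7 TPM in Chd8-/- and 4.1 and 12.4 TPM in WT, Eif2ak3 at 5.6 and 12.2 TPM against 6.2 and 5.1 TPM, and Atf6 at 9.1 and 18.5 TPM against 11.5 and 13.4 TPM. Xbp1 was at 55.2 and 100 TPM against 38.4 and 62.5 TPM. Ddit3, which encodes the proapoptotic factor CHOP, was at 18.7 and 48.3 TPM against 13.7 and 32.2 TPM. In these 5 genes Chd8-/- library 2 was the highest of the 4, and Chd8-/- library 1 was not above both WT libraries. The summed myeloid markers were also highest in library 2, at 1521.8 TPM, and their part in these values was not tested. Atf4 was at 89.5 and 71.8 TPM against 86.5 and 93.6 TPM, with library 2 the lowest. These TPM count all Xbp1 mRNA and do not separate its spliced form, and phosphorylation of IRE1 and PERK or cleavage of ATF6 was not measured.

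Targets of the PERK and ATF4 arm were few and low. Ppp1r15a, which encodes GADD34, the phosphatase subunit that ends the translation block, was at 18.9 and 17.9 TPM against 4.9 and 14.3 TPM in WT (log2 fold change 1.03, SE 0.55, adjusted p = 0.591). Both Chd8-/- libraries were above WT, but the WT values lay far apart, and the change was 0.34 without WT library 1 and 1.72 without WT library 2. Asns, asparagine synthetase, was at 5.8 and 11.4 TPM against 4.0 and 5.2 TPM, above WT in both libraries (0.72, SE 0.46), by 0.29 in library 1 alone and 1.16 in library 2 alone. Trib3, a pseudokinase induced by ATF4 and CHOP, was at 3.6 and 1.9 TPM against 2.5 and 2.3 TPM, and overlapped.

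In 21 of the 35 genes, the log2 gap between the Chd8-/- libraries was larger than the log2 fold change in either direction. Each Chd8-/- library could be set against both WT libraries on its own. Library 1 was above both WT libraries in 21 of the 35 genes and below both in 6, beside 32.5% and 38.7% of all genes. Library 2 was above in 21 and below in 9, beside 28.0% and 52.7% of all genes. Both libraries therefore gave the same number above, but 7 genes were above WT in library 2 alone (Ern1, Eif2ak3, Atf6, Xbp1, Ddit3, Hyou1 and Derl3) and 7 in library 1 alone (Dnajb11, Pdia3, Pdia4, Pdia6, Edem1, Derl2 and Trib3).

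The medians by role moved when Chd8-/- library 2 was left out, a comparison added after seeing the data. The median log2 fold change of the sensors went from 0.49 to -0.01 and that of the transcription factors from 0.50 to -0.01. The luminal HSP70 and HSP90 chaperones went from 0.64 to 0.52, the lectin cycle stayed at 0.53, and the disulfide enzymes went from 0.15 to 0.42. The translocon went from 0.41 to 0.62, the targets of the PERK and ATF4 arm from 0.72 to 0.44, the BiP cofactors from 0.33 to 0.32 and the degradation genes from 0.00 to 0.08. Chd8-/- library 1 alone gave log2 fold changes of 0.88 for Hspa5, 0.53 for Calr, 0.58 for Canx, 0.76 for Manf and 0.93 for Ero1l.

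**Figure D4:**
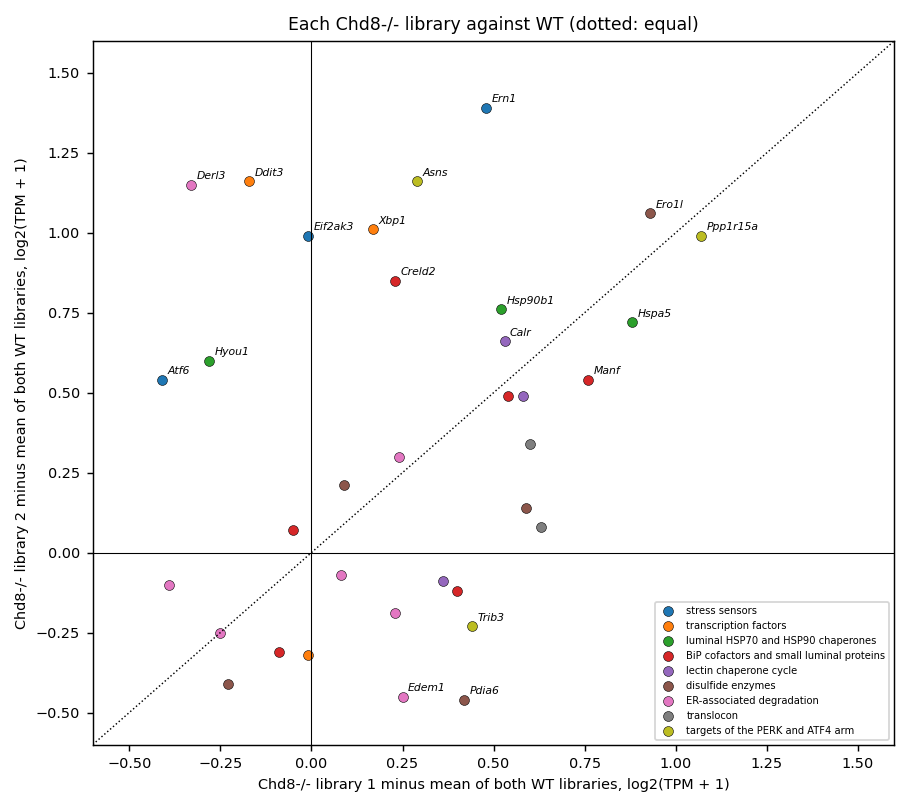
Log2(TPM + 1) of each Chd8-/- library minus the mean of both WT libraries, library 1 across and library 2 up, 1 point a gene (35 genes), coloured by role. Ero1l, Hspa5, Manf, Calr and Ppp1r15a lie near the dotted line of equal values, whereas Ern1, Eif2ak3, Ddit3, Xbp1, Atf6 and Hyou1 lie above it.

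The genes with an ERSE in their promoter window did not share a direction. Of the 10, 5 (Hspa5, Hsp90b1, Calr, Canx and Creld2) were above WT in both libraries and 1, Ero1lb, was below, with a median log2 fold change of 0.47. Of the 20 tested genes with a window and no ERSE, 7 were above and 0 below, with a median of 0.31. Over all genes tested these shares were 14.8% above and 27.8% below. Ero1l, the member with the smallest p, was among these 20.

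Further genes of the pathway outside the 36 were read from lists of related function. For every list the shares over all genes tested were 14.8% above and 27.8% below. Of 32 tested further foldases of the ER, 8 (25.0%) were above WT and 4 (12.5%) below in both libraries, with a median log2 fold change of 0.11. Ppib, the ER cyclophilin B, was at 503.1 and 505.9 TPM against 218.7 and 254.9 TPM (1.09, SE 0.17, adjusted p = 0.373), and Prdx4, the ER peroxiredoxin, had 0.96 (SE 0.31). Txndc12, a thioredoxin-like protein of the ER, was at 41.5 and 35.9 TPM against 89.4 and 76.4 TPM (-1.08, SE 0.22), and Rcn1 had -0.45 (SE 0.25), with -0.26 in Chd8-/- library 1 alone and -0.64 in library 2 alone. Ppib was therefore arranged as Hspa5 was, and Txndc12 the other way.

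Of 31 tested genes of the ATF4 and amino acid response, 8 (25.8%) were above and 2 (6.45%) below, beside 14.8% and 27.8% of all genes. Sesn2, a stress-induced inhibitor of mTORC1, was at 43.9 and 21.3 TPM against 2.7 and 11.1 TPM (2.24, SE 0.73), and Ddit4, another such inhibitor, had 0.88 (SE 0.40), with 1.37 in Chd8-/- library 1 alone and 0.38 in library 2 alone. Psph, an enzyme of serine synthesis, had -0.96 (SE 0.52), with -0.37 in library 1 alone and -1.54 in library 2 alone. The arginine transporter Slc7a1 had -0.39 (SE 0.36), with -0.72 and -0.06 in that order. The median of that list was 0.07.

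Of 32 tested genes of translocation, signal peptidase and N-glycosylation, 9 (28.1%) were above and 4 (12.5%) below, beside 14.8% and 27.8% of all genes. Rpn2 and Rpn1, subunits of the oligosaccharyltransferase, had 0.65 (SE 0.30) and 0.47 (SE 0.26). Dad1, a further subunit of that enzyme, was at 54.2 and 34.2 TPM against 98.1 and 89.4 TPM (-1.10, SE 0.30), and Tusc3 had -0.54 (SE 0.39). Subunits of 1 enzyme thus lay on both sides of WT.

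In the remaining lists, too, the shares over all genes were 14.8% above and 27.8% below. Among 22 further degradation factors of the ER, 5 (22.7%) were above (Fam8a1 0.36 among them) and 5 (22.7%) below (Edem2 -0.73, Os9 -0.46). Among 19 further regulators of the response, 4 (21.1%) were above (Tmbim6 0.31, Eif2s1 0.23) and 5 (26.3%) below (Creb3l2 -0.74, Traf2 -0.70). Among 19 genes of COPII transport and KDEL receptors, 4 (21.1%) were above (Sar1b 0.70, Kdelr2 0.59) and 4 (21.1%) below (Sec13 -0.51, Sec24c -0.45). Sar1b came to 1.07 with Chd8-/- library 1 alone and 0.33 with library 2 alone. In the same order Eif2s1 came to 0.35 and 0.11, and Sec24c to -0.23 and -0.68. Of 15 tested cytosolic and mitochondrial heat shock proteins, 7 (46.7%) were above and 0 below, with Dnajb1 (0.85) and Hsph1 (0.65) the highest of them among genes of at least 5 TPM. These values in brackets are log2 fold changes, and no gene of these lists passed the adjusted p threshold.

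**Figure D5:**
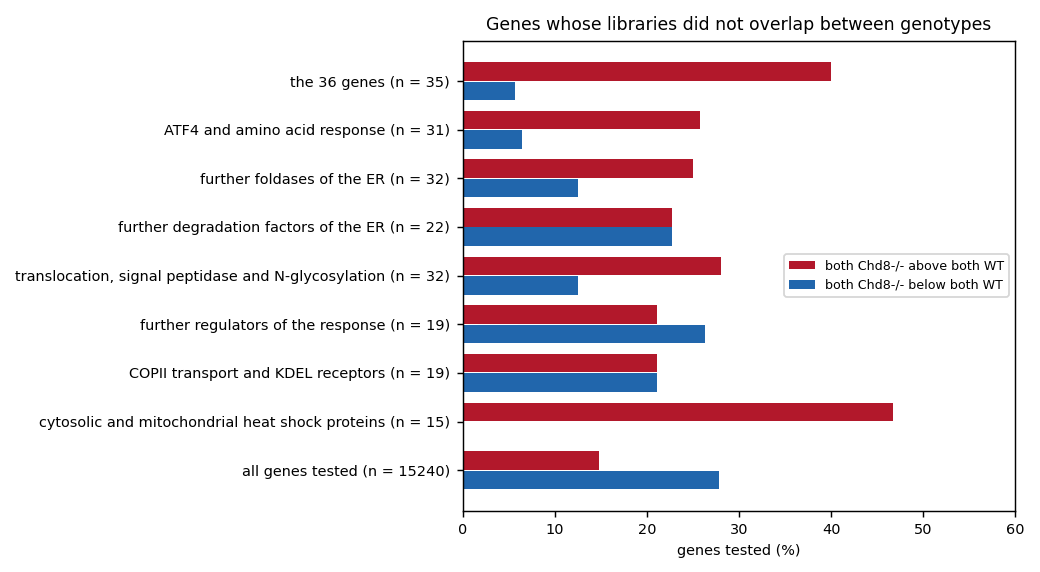
Percentage of genes tested whose Chd8-/- libraries both lay above (red) or both below (blue) both WT libraries, for the 36 genes, 7 further lists and all genes tested. The 36 genes are at 40.0% above and 5.71% below, all genes at 14.8% and 27.8%.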

How the data were processed

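The 36 genes, the further lists and the tests were chosen with earlier results of these data known. RNA was measured in 2 WT and 2 Chd8-/- libraries of sorted YFP+ splenic Tregs. The authors trimmed reads (Trim Galore 0.4.2, cutadapt 1.9.1), aligned them to mm10 with STAR 2.6.1e, counted them per RefSeq gene with featureCounts 1.6.2 and deposited TPM, rounded to 1 decimal. TPM are relative within a library and keep no read depth, so the depth is unknown and no counting interval is given.

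Values were analysed as log2(TPM + 1) by a linear fit per gene in limma 3.58.1 (R 4.3.3). Its variances were moderated along a mean trend, its p-values are two-sided, and they were adjusted by Benjamini-Hochberg over the 15240 genes that reached 1 TPM in 2 libraries. The script was tested on simulated data. Fold changes are on that scale, which understates low genes. Entries under repeated names (4) were left out. Every member was named; from each further list, up to 2 genes with the largest and the smallest log2 fold change were named among those with a mean of at least 5 TPM and no overlap between genotypes. A gene that this rule names is not reported here. The alternatives were other pseudocounts, filters, quantile normalization, a replicate block and leaving out each library. Gene positions and promoter windows are from RefSeq, GRCm38.p6. The ATAC and CHIP peak tables, also deposited as TPM, use mm39, for which no annotation was used here, so their peaks were not placed on the genes by position. The IgG libraries were not analysed here.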

Additional observations from a re-analysis of the deposited data

How the results depend on the processing

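No gene passed an adjusted p of 0.05 with the values as deposited, except that 2 genes, Cdkn1a and Mir7649, neither of them a member, did when genes with a mean of at least 5 TPM were tested. At an unadjusted p under 0.05, 595 genes were higher and 960 lower. The members' median log2 fold change kept its sign under every alternative run, between 0.25 and 0.39, and between 0.24 and 0.34 when 1 library was left out. The count of members above WT in both Chd8-/- libraries was 14 or 15 under the other alternatives and between 15 and 21 when 1 library was left out, where fewer libraries have to be apart. Leaving out 1 library gave 0 called genes in each case. In 13 of 35 members the sign depended on a setting. In the 16 whose libraries did not overlap, only quantile normalization could have changed the sign, and it changed none. The members' median minus that of all genes, an alternative chosen after seeing the data, was 0.51 and came to 0.29 without Chd8-/- library 2. Samples of the same number did not deviate together (correlation -0.012). With 2 libraries a genotype this is a single comparison and cannot exclude a pairing. The limma fit with the replicate number as a block gave 0 called genes and a median of 0.36 over the members. The smallest adjusted p of a member in that fit was 0.552. Accessibility at the members' start sites, with its alternatives, was not run, since the peak tables use another genome build than the annotation, and values are given only at peaks assigned to Hspa5. The number of libraries limits every comparison, and the depth is unknown.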

Other observations

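In the CHIP table, from WT Tregs of 2 mice with an antibody against CHD8, 11 of 6971 peaks are assigned to Hspa5 in the peak annotation that accompanies the study. They lie on chromosome 2 (mm39) between positions 34643813 and 35551844, a stretch much longer than the gene, so the assignment does not place them in it. Their values ranged from 96.4 to 174.9 TPM in mouse 1 (median 145.0) and from 97.3 to 236.5 TPM in mouse 2 (median 138.4), beside medians over all peaks of 140.2 and 133.3 TPM. The Hspa5 peaks were thus of ordinary height in both mice.

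Of these peaks, 10 of 11 overlapped an accessible region of the ATAC table by at least 1 base, a comparison chosen after seeing the data. The share over all CHIP peaks was not counted, so this overlap cannot be called particular to Hspa5. The overlapping regions were 11, and the mean log2 change of the 2 Chd8-/- mice over the single WT mouse ranged from -0.24 to 0.65. One region, at chr2:35511736-35512415, was past the cutoff of 0.4, with 9.9 and 8.7 TPM in Chd8-/- and 5.6 TPM in WT. Over all 81800 regions 17.3% were past that cutoff upward and 9.94% downward, with 0.84 TPM added before the log2. The study itself reported fewer altered regions at the same cutoff, in each direction. Among the 11 regions, the one with the highest TPM in WT lay over the peak at chr2:34662085-34662573. It was at 53.6 and 52.3 TPM in Chd8-/- and at 55.6 TPM in WT, and was not placed at the start of Hspa5. With 1 WT mouse there is no test.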
